A study of Homo sapiens with 6 samples.

Results

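The type I interferon-stimulated genes are the antiviral and regulatory genes that cells switch on when interferon-α or interferon-β binds at the cell surface. A set of 36 such genes, named by symbol, was followed here. The set was chosen with earlier results of these data known. All 36 had a row among the 23340 named genes of the deposited tables. RNA had been sequenced from 3 human cell lines with 2 libraries each, 6 in all: MCF10A, a non-tumorigenic line of mammary epithelial cells; HT-29, a line from a colorectal adenocarcinoma; and MDA-MB-436, a line from a breast adenocarcinoma. MCF10A was grown in horse serum with EGF, hydrocortisone, cholera toxin and insulin, and neither it nor MDA-MB-436 is labelled as treated. Both HT-29 libraries are labelled as treated with IFN-γ, the type II interferon, for 24 hours at a dose of 200 U per ml. No library of untreated HT-29 cells was part of the comparisons. The labels do not state whether a line's 2 libraries are from separate cultures, and p-values below cover the spread between such libraries, which may be technical.

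Type I interferon binds the receptor pair IFNAR1 and IFNAR2, whose kinases JAK1 and TYK2 phosphorylate STAT proteins. These join IRF9 in the complex ISGF3, which binds interferon-stimulated response elements (ISRE) in promoters and induces genes that sense viral RNA, degrade it, block its translation or tag proteins with ISG15. IFN-γ uses a different receptor and acts mainly through STAT pairs at γ-activated sites (GAS), and it also induces IRF1, which can bind ISRE sequences. Many of the same genes can therefore respond to both kinds of interferon.

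The markers of both cancer lines went against their labels. KRT20, an intestinal keratin, had normalised counts of 29900 and 30880 in labelled MDA-MB-436 (25M library first, deeper library second, here and below), 0 and 0.547 in labelled HT-29, and 0 and 1.47 in MCF10A. VIL1, the brush-border protein villin, had no read in MCF10A or labelled HT-29, against 2055 and 2198 in labelled MDA-MB-436. VIM, the mesenchymal filament vimentin, had 16.5 and 7.39 in labelled MDA-MB-436, 36599 and 35267 in labelled HT-29, and 25901 and 26246 in MCF10A. The intestinal genes thus sat in the libraries labelled as breast, and the labels of the 2 cancer lines may be exchanged. The labelled groups were kept, each is called by its label below, and every direction that involves them rests on it: under an exchange, the libraries labelled MDA-MB-436 would be the ones treated with IFN-γ.

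Recovered reads per library ranged from 16.69M to 69.39M, and the labels disagree on the deeper MCF10A library, giving 100M reads in its title and 50M in its sample type. Of 9 leukocyte markers, 7 were under the filter on low values, with CD3D at 0 reads in every library and PTPRC at 12, 8 and 7 reads in MCF10A, labelled HT-29 and labelled MDA-MB-436. The rest were CD14, with 487 and 461, 356 and 372, and 72.1 and 88.1 normalised counts, and CSF1R, with 226, 14 and 6 reads. Both were lower in labelled MDA-MB-436 than in MCF10A. The basal keratin KRT14 stood at 225570 and 218996 in MCF10A. It stood at 91.5 in the 25M library labelled HT-29 against 2.74 in the deeper one, and at 84.4 against 0.616 in those labelled MDA-MB-436. The 25M libraries of both cancer-labelled lines therefore held more of this MCF10A gene than their deeper partners. Whether reads crossed between libraries was not tested.

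The 36 genes together were lowest in MCF10A, higher in labelled HT-29 and highest in labelled MDA-MB-436. They took 0.0751% (95% Wilson interval 0.0738 to 0.0763) and 0.0761% (0.0755 to 0.0768) of the reads in MCF10A, 0.457% (0.454 to 0.461) and 0.464% (0.462 to 0.466) in labelled HT-29, and 1.37% (1.36 to 1.38) and 1.35% (1.35 to 1.35) in labelled MDA-MB-436. Libraries of 1 line lay close together on this measure, and no range of 1 line met that of another. These intervals cover counting error only, since each comes from 1 library. They take reads as independent, which reads copied by PCR are not, and so may be too narrow even for that. In bulk RNA, a smaller number of cells that express a gene and less of its RNA per cell cannot be told apart.

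**Figure D1:**
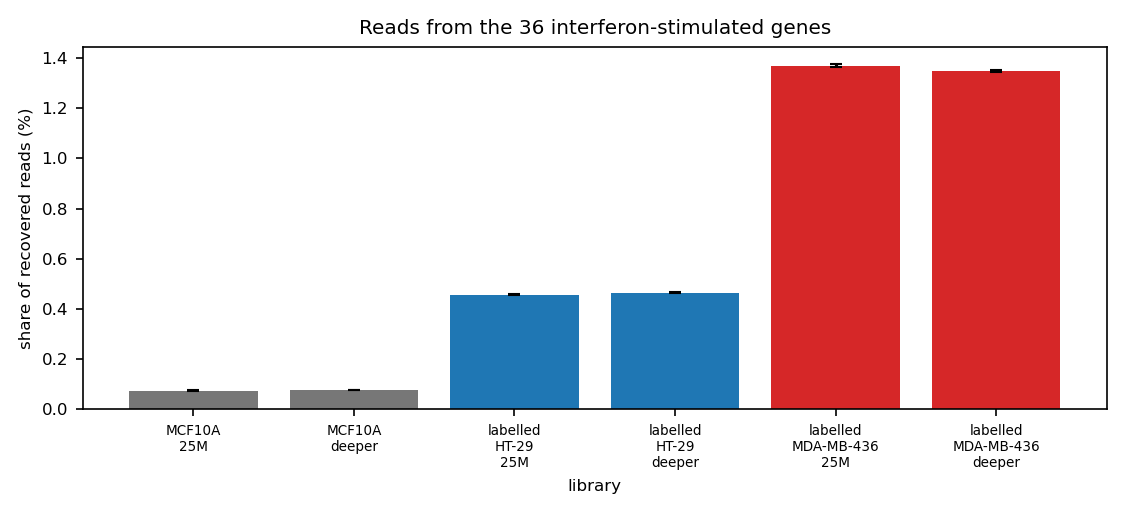
Share of recovered reads, in percent, that came from the 36 genes in each of the 6 libraries, with 95% Wilson intervals as error bars. The MCF10A bars stand at 0.0751% and 0.0761%, the labelled HT-29 bars at 0.457% and 0.464%, and the labelled MDA-MB-436 bars at 1.37% and 1.35%.

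In the libraries labelled MDA-MB-436, all 36 genes were higher than in MCF10A (limma, Benjamini-Hochberg adjusted p below 0.05 and a difference of at least 2-fold), beside 25.6% of all 15638 genes tested. All 36 had passed the filter on low values, 10 or more normalised counts in 2 or more libraries, and 33 differed by 8-fold or more, beside 9.79% of all genes. MX1, MX2, RSAD2, HERC5, DHX58 and XAF1 were under 10 in both MCF10A libraries. They passed only through the cancer-labelled libraries, where they were high, so their calls against MCF10A are not independent of the filter. Both values of every one of the 36 lay above both MCF10A values, beside 45.4% of all genes, and none lay below, beside 44.6%. The median log2 fold change was 6.75 for the 36 genes and 0 for all genes. In the libraries labelled HT-29, 30 genes were higher than in MCF10A, beside 28.4% of all genes, 2 were lower, beside 18.1%, and 4 were not called. Of the 30, 22 were higher by 8-fold or more, beside 12.6% of all genes, and the medians were 4.63 and 0.13. Both values lay above both MCF10A values for 34 of the 36, beside 50.4% of all genes, and below for 2, IFIT5 and EPSTI1, beside 42.2%. Scaling by library total alone moved the median over all genes in that comparison from 0.13 to 0.43, and its split over all genes from 4442 higher and 2823 lower to 5376 and 1994.

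Set against each other directly, 26 of the 36 genes were lower in the libraries labelled HT-29 than in those labelled MDA-MB-436, beside 23.5% of all genes. Another 2 were higher, beside 29.9%, and 8 were not called. The median log2 difference (labelled HT-29 minus labelled MDA-MB-436) was −2.15 for the 36 genes and 0.09 for all genes, and 0.41 for all genes when scaled by library total, with 5617 genes then higher and 2822 lower in place of 4675 and 3675. Both values of 33 genes lay below both values of the other line, beside 44.1% of all genes, and those of 3 lay above, beside 49.5%.

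The 36 genes were sorted by these calls. Both comparisons with MCF10A use the same MCF10A libraries, so being called in both is a description. In all, 30 genes were higher in both cancer-labelled lines, 5 were higher only in the libraries labelled MDA-MB-436 (OAS1, OAS3, IFIT5, SAMD9 and EPSTI1, each also different between the cancer-labelled lines), and none was higher only in those labelled HT-29. The shares of all genes tested in these 3 classes were 12.7%, 10.7% and 13.9%. ADAR was higher in labelled MDA-MB-436 with no call between the cancer-labelled lines and could not be placed. Of the 30, 21 were also higher in labelled MDA-MB-436 than in labelled HT-29, 7 were not called between them, and 2, HERC5 and IFI6, were higher in labelled HT-29.

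**Figure D2:**
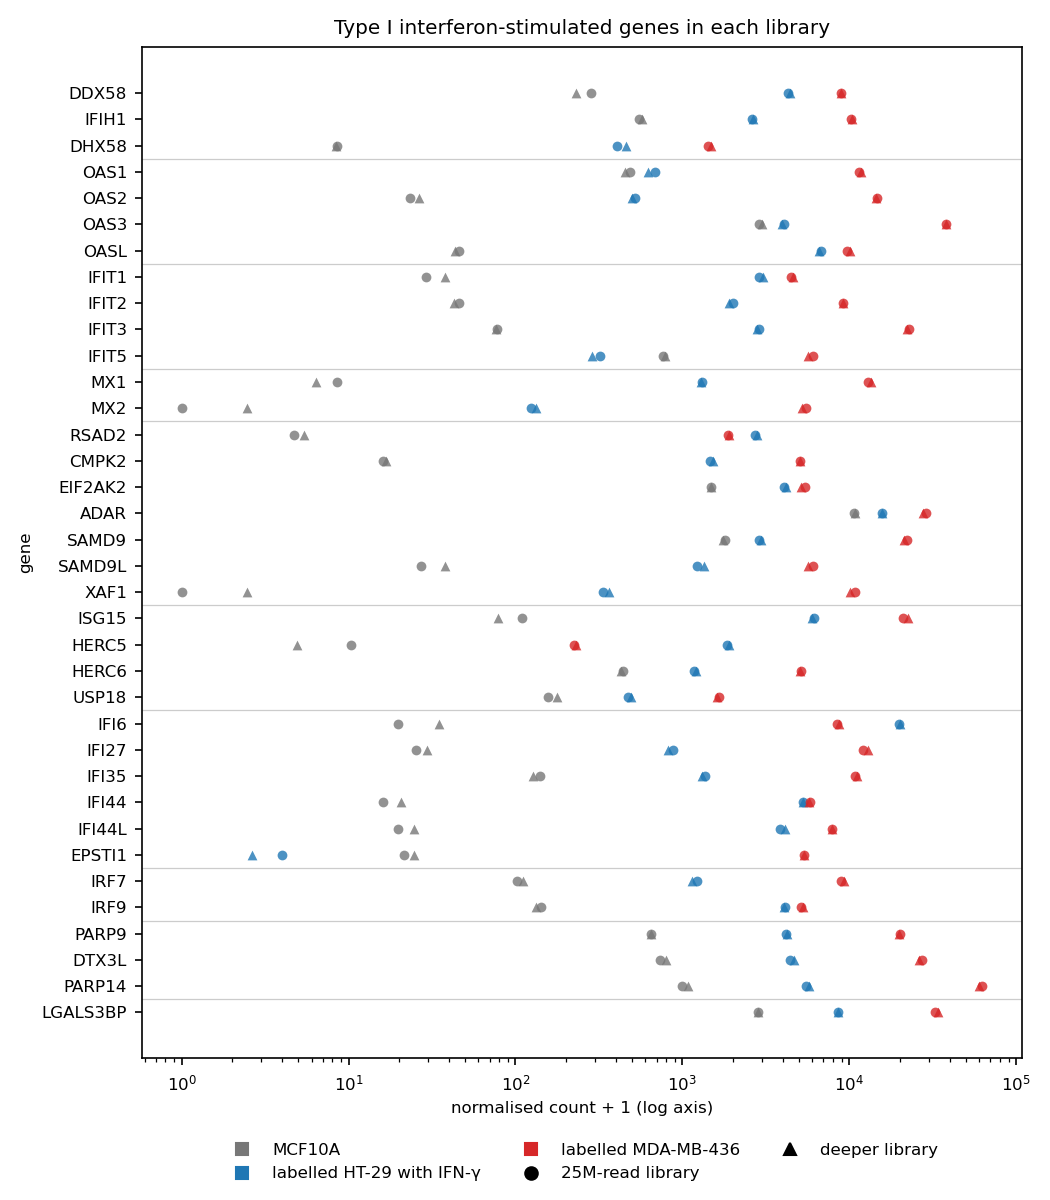
Normalised count plus 1 (log axis) of each of the 36 genes, grouped by role, in the 6 libraries. Grey marks MCF10A, blue labelled HT-29 with IFN-γ and red labelled MDA-MB-436, with circles for 25M libraries and triangles for deeper ones. Red lies furthest right for most genes, blue does so for HERC5, IFI6 and RSAD2, and for EPSTI1 and IFIT5 blue lies left of grey.

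Promoter sequence of these genes was taken from the RefSeq table for GRCh38.p14, in which 29 of the 36 had a window (DDX58 under its newer symbol RIGI) and MX2, OAS2, OASL, IFIT2, DHX58, IRF7 and USP18 had none. In the 250 bases before the annotated start, the ISRE core, 2 copies of GAAA with any 2 bases between them, sought on both strands, was found for 18 of the 29 genes (62.1%), beside 1014 of 27305 genes in the table (3.71%). Counted by start site it was in 21 of 41 windows (51.2%), beside 3.02% of 35116 windows of the same length. The GAS sequence TTCNNNGAA, which reads the same on both strands, was found for 7 of the 29 genes (24.1%), beside 8.09% of all genes. In EPSTI1, IFI27 and MX1 it overlapped an ISRE core match, so the ISRE and GAS counts are not independent. A match is a run of letters and not a measured binding site, and all 36 genes had been named as interferon-responsive beforehand.

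Windows are printed below for genes the comparisons turn on, as the 130 bases before the start, 5′ to 3′ on the gene's own strand, with ISRE core matches in capitals (overlapping matches run together, and TTTC stands first where the match is on the other strand). These 5 genes were higher in both cancer-labelled lines. ISG15 stands for the genes highest in labelled MDA-MB-436, IFIT1 and IFI44 for those not called between the cancer-labelled lines, and IFI6 and HERC5 are the genes that were higher in labelled HT-29.
ISG15, chr1:1013367-1013496, plus strand: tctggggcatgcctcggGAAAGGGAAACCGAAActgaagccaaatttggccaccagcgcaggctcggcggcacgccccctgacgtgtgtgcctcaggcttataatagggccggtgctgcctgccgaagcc
IFIT1, chr10:89392493-89392622, plus strand: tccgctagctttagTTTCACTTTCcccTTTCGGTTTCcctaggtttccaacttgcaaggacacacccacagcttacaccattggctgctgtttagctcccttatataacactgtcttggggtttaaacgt
IFI44, chr1:78649659-78649788, plus strand: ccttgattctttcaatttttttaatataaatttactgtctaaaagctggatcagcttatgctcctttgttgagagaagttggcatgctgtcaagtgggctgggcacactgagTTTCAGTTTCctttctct
IFI6, chr1:27672193-27672322, minus strand: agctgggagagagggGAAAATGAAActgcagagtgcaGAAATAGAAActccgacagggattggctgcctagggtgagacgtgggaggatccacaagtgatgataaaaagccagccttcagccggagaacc
HERC5, chr4:88456989-88457118, plus strand: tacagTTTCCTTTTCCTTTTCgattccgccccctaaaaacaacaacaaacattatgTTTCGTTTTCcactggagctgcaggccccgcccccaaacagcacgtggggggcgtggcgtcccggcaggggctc

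Both genes in the second set were lower in labelled HT-29 than in MCF10A and higher in labelled MDA-MB-436, and both hold the core close to the start. Their windows are shown to set them beside the first set.
IFIT5, chr10:89414438-89414567, plus strand: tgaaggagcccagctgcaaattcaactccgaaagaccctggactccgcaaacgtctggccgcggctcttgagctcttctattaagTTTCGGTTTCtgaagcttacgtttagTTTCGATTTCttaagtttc
EPSTI1, chr13:42992242-42992371, minus strand: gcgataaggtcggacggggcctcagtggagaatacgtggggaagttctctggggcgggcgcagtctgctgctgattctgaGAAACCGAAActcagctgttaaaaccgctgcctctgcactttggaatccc

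Core matches were therefore found in both classes of gene. Among genes higher in both lines, 14 of the 23 with a window held the core (60.9%), and of the 5 higher only in labelled MDA-MB-436, 4 did (EPSTI1, IFIT5, OAS3 and SAMD9). The window of OAS1 holds GAAACGAAA, a closer spacing that the search did not count. A missing match therefore does not mean that no ISRE is present. In IFIT5 the matches end 36 and 10 bases before the start, and in EPSTI1 the match ends 41 bases before it, with a GAS sequence overlapping it at 56 to 48 bases. In ISG15 the overlapping matches span 113 to 98 bases before the start. HERC5 had 3 matches and IFI6 had 3, of which 1 lies upstream of the bases printed.

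**Figure D3:**
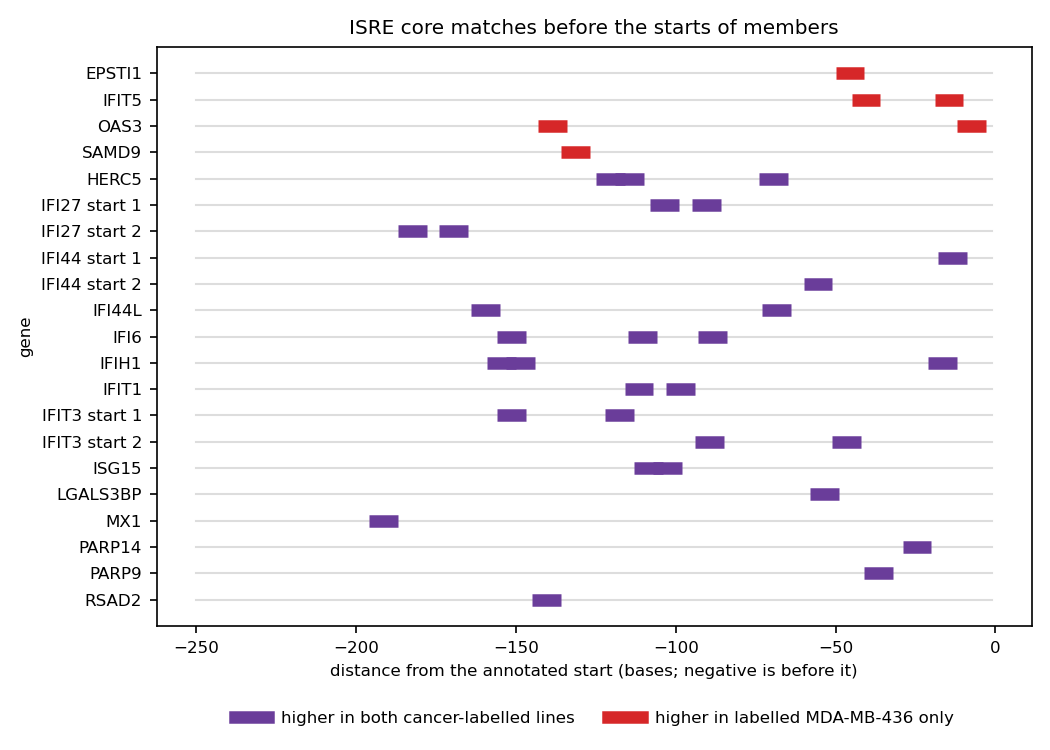
Position of ISRE core matches in bases before the annotated start, for each start site with a match among the 36 genes. Purple marks genes higher in both cancer-labelled lines and red those higher in labelled MDA-MB-436 only; grey lines span the 250 bases searched, and matches of both colours occur near the start and further away.

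The cytoplasmic sensors of viral RNA were higher in both cancer-labelled lines. DDX58, which encodes RIG-I, had normalised counts of 281 and 229 in MCF10A, 4316 and 4422 in labelled HT-29, and 8893 and 8911 in labelled MDA-MB-436. The groups did not overlap. It was 37.1-fold higher than MCF10A in labelled MDA-MB-436 and 18.3-fold in labelled HT-29, and its 2.03-fold difference between the cancer-labelled lines was called at a log2 difference of −1.03 (SE 0.0825, limma adjusted p = 6.91e-06). That call was lost with scaling by library total (−0.70) and when tested for more than a 2-fold difference (adjusted p = 0.716). IFIH1, the sensor MDA5 for long double-stranded RNA, went from 552 and 574 in MCF10A to 2606 and 2661 and to 10291 and 10451. DHX58 (LGP2), a helicase that tunes both sensors, was scarce in MCF10A at 7.49 and 7.36 and reached 404 and 461 in labelled HT-29 and 1420 and 1485 in labelled MDA-MB-436. All 3 sensors kept the order MCF10A, labelled HT-29, labelled MDA-MB-436.

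Both interferon regulatory factors among the 36 were higher in both lines. IRF7, which drives transcription of interferon-α genes, stood at 101 and 110 in MCF10A, 1223 and 1141 in labelled HT-29 and 8875 and 9244 in labelled MDA-MB-436. IRF9, the DNA-binding partner in ISGF3, stood at 140 and 131, 4136 and 4052, and 5124 and 5276. IRF7 was 7.88-fold higher in labelled MDA-MB-436 than in labelled HT-29. For IRF9 the cancer-labelled lines were 1.29-fold apart, a log2 difference of −0.35 (95% interval −0.45 to −0.24, limma adjusted p = 0.000151), under the 2-fold threshold though the values did not overlap.

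The oligoadenylate synthetases make a messenger that triggers RNA decay, and their differences were uneven. OAS1 had 485 and 451 in MCF10A, 683 and 618 in labelled HT-29, and 11460 and 11712 in labelled MDA-MB-436. OAS3 had 2873 and 2986, 4074 and 3978, and 37992 and 37815. In labelled HT-29 both stood little above MCF10A, at log2 fold changes of 0.47 (SE 0.0581) for OAS1 and 0.46 (SE 0.0279) for OAS3, under the 2-fold threshold. OAS2, their neighbour on the chromosome in the RefSeq order, had 22.5 and 25.5, 522 and 496, and 14752 and 14524, and so was 20.2-fold higher in labelled HT-29 than in MCF10A. OASL, a relative that makes no such messenger and binds RIG-I, had 44.9 and 42.7, 6788 and 6598, and 9715 and 10044. It was the only one of the 4 not called between the cancer-labelled lines, at a log2 difference of −0.56 (95% interval −0.66 to −0.46, limma adjusted p = 4.93e-06).

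The IFIT proteins bind viral RNA ends or act beside the proteins that do, and 3 of the 4 were higher in both lines. IFIT1 had 28.1 and 36.8 in MCF10A, 2889 and 3051 in labelled HT-29, and 4480 and 4577 in labelled MDA-MB-436. IFIT2 had 44.9 and 41.7, 2015 and 1894, and 9155 and 9173, and IFIT3 had 76.8 and 75.1, 2865 and 2803, and 22845 and 22313. The spread between cancer-labelled lines differed among these 3, from 1.51-fold for IFIT1 (log2 difference −0.61, 95% interval −0.87 to −0.35, not called) to 4.76-fold for IFIT2 and 7.96-fold for IFIT3. IFIT5 went a different way, with 764 and 789 in MCF10A, 320 and 287 in labelled HT-29, and 6100 and 5639 in labelled MDA-MB-436. Its values in labelled HT-29 lay below both other lines, 2.65-fold under MCF10A (log2 fold change −1.35, SE 0.064, limma adjusted p = 3.34e-07) and 19.4-fold under labelled MDA-MB-436. IFIT1 and IFIT5 are neighbouring genes in the RefSeq order, and the printed windows of both hold 2 core matches.

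The Mx GTPases, which trap viral nucleoproteins, were close to absent in MCF10A. MX1 had 7.49 and 5.40 there, 1319 and 1284 in labelled HT-29, and 13035 and 13451 in labelled MDA-MB-436, with log2 fold changes from MCF10A of 10.81 (SE 0.121, limma adjusted p = 1.79e-10) and 7.47 (adjusted p = 1.67e-09). MX2 had 0 and 1.47 in MCF10A, which is 3 reads in all, then 123 and 132, and 5534 and 5197. The labelled MDA-MB-436 libraries stood 10.3-fold above labelled HT-29 for MX1 and 40.6-fold for MX2. With 3 reads, the ratio of MX2 in labelled MDA-MB-436 to MCF10A, 4520-fold, has a 95% counting interval from 1546 to 21920. Its log2 fold change of 11.74 was 11.08 without the 25M library of MCF10A, 12.39 without the deeper one, and 9.88 with a pseudocount of 5 in place of 1.

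XAF1, a partner of the apoptosis inhibitor XIAP, was as scarce in MCF10A, with 0 and 1.47 normalised counts or 3 reads. It had 335 and 363 in labelled HT-29 and 10773 and 10081 in labelled MDA-MB-436, 28.8-fold apart. The ratio of labelled MDA-MB-436 to MCF10A was 8776-fold (95% counting interval 3002 to 42560), and the log2 fold change of 12.69 was 12.04 without the 25M library of MCF10A, 13.35 without the deeper one, and 10.84 with a pseudocount of 5. XAF1 and MX2 had the fewest reads of the 36 in MCF10A.

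RSAD2 and CMPK2 are neighbours, in the RefSeq order, whose enzymes work on nucleotides: viperin, from RSAD2, makes a chain-terminating nucleotide, and CMPK2 is a mitochondrial nucleotide kinase. RSAD2 had 3.75 and 4.42 in MCF10A, 2718 and 2787 in labelled HT-29, and 1865 and 1914 in labelled MDA-MB-436. CMPK2 had 15.0 and 15.7, 1470 and 1515, and 5066 and 5072. The order of the cancer-labelled lines thus differed within the pair. RSAD2 lay 1.46-fold higher in labelled HT-29, a log2 difference of 0.54 (95% interval 0.33 to 0.75, limma adjusted p = 0.000608) that was under the threshold, and CMPK2 was 3.37-fold higher in labelled MDA-MB-436.

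EIF2AK2 and ADAR showed the smallest differences of the 36 between labelled MDA-MB-436 and MCF10A. EIF2AK2, the kinase PKR that halts translation, had 1477 and 1482 in MCF10A, 4062 and 4179 in labelled HT-29, and 5408 and 5116 in labelled MDA-MB-436. It was 3.50-fold and 2.80-fold higher than in MCF10A in labelled MDA-MB-436 and labelled HT-29, with a log2 difference between those of −0.35 (95% interval −0.44 to −0.27, limma adjusted p = 2.89e-05). ADAR, the adenosine deaminase that edits double-stranded RNA, had 10724 and 10833, 15709 and 15660, and 28630 and 27779. It was 2.59-fold higher in labelled MDA-MB-436 than in MCF10A, and in labelled HT-29 it stood at a log2 fold change of 0.54 (SE 0.0229), under the threshold. The difference between the cancer-labelled lines was −0.85 (95% interval −0.90 to −0.79), also under it. The counts do not separate the interferon-driven ADAR transcript from the constitutive one.

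SAMD9 and SAMD9L, neighbouring genes for restriction factors of poxviruses, differed in MCF10A. SAMD9 had 1811 and 1746 there, 2888 and 2975 in labelled HT-29, and 22139 and 21413 in labelled MDA-MB-436. SAMD9L had 26.2 and 36.8, 1229 and 1344, and 6044 and 5677. SAMD9L was 37.9-fold higher in labelled HT-29 than in MCF10A. For SAMD9 that log2 fold change was 0.72 (SE 0.0324), not called with the deposited scaling and called with scaling by library total (1.03).

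ISG15 is a small protein attached to others much as ubiquitin is. It had 109 and 77.1 in MCF10A, 6167 and 6008 in labelled HT-29, and 20860 and 22588 in labelled MDA-MB-436, so it was 72.3-fold and 265-fold above MCF10A and 3.67-fold apart between the cancer-labelled lines (log2 difference −1.83, SE 0.151, limma adjusted p = 4.03e-05). USP18, which removes ISG15 and damps signalling at IFNAR2, had 155 and 177, 470 and 488, and 1651 and 1614. HERC6, a relative of the ISG15 ligase, had 438 and 427, 1173 and 1200, and 5165 and 5068. These 3 genes shared the order MCF10A, labelled HT-29, labelled MDA-MB-436.

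HERC5, the main ISG15 ligase in human cells, had the opposite order of cancer-labelled lines. It had 9.36 and 3.93 in MCF10A, 1857 and 1893 in labelled HT-29, and only 222 and 231 in labelled MDA-MB-436. It was 372-fold higher than MCF10A in labelled HT-29 (95% counting interval 218 to 700), 45.3-fold in labelled MDA-MB-436, and 8.23-fold higher in labelled HT-29 than in labelled MDA-MB-436 (95% counting interval 7.49 to 9.05, log2 difference 3.04, SE 0.3, limma adjusted p = 2.54e-05). HERC6 lies next to HERC5 in the RefSeq order and was 4.27-fold higher in labelled MDA-MB-436. Neighbouring ligase genes therefore differed in opposite directions between the same libraries.

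IFI6, a membrane protein that opposes cell death, was the other gene higher in labelled HT-29. It had 18.7 and 33.9 in MCF10A, 19924 and 20123 in labelled HT-29, and 8475 and 8644 in labelled MDA-MB-436. The fold over MCF10A was 653 in labelled HT-29 and 280 in labelled MDA-MB-436, and the MCF10A libraries were 1.81-fold apart, the widest gap within a line among members with at least 50 reads. The cancer-labelled lines were 2.33-fold apart (95% counting interval 2.29 to 2.37, log2 difference 1.23, SE 0.273, limma adjusted p = 0.00971). This call was lost when tested for more than a 2-fold difference (adjusted p = 0.443). The SE pools the spread within all 3 lines, so the gap between the MCF10A libraries enters it, although MCF10A is not in this difference.

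IFI27, a mitochondrial relative of IFI6, had 24.3 and 28.5 in MCF10A, 884 and 825 in labelled HT-29, and 12156 and 12863 in labelled MDA-MB-436, and was thus 15.1-fold higher in the latter. IFI35, a partner of the STAT-binding protein NMI, had 139 and 127, 1364 and 1305, and 10769 and 11088. Both followed the common order, unlike IFI6.

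IFI44 and IFI44L are neighbouring genes for related cytoplasmic proteins, and neither was called between the cancer-labelled lines. IFI44 had 15.0 and 19.6 in MCF10A, 5280 and 5304 in labelled HT-29, and 5853 and 5774 in labelled MDA-MB-436. The log2 difference between the cancer-labelled lines was −0.14 (95% interval −0.38 to 0.11, limma adjusted p = 0.258), the only one of the 36 with an adjusted p above 0.05, though the values did not overlap. That interval and p-value pool the spread of MCF10A, with 8 and 40 reads, although MCF10A is not in this difference. By pooled reads, labelled MDA-MB-436 was 1.09-fold higher (95% counting interval 1.07 to 1.12). With scaling by library total the log2 difference was 0.19. IFI44L had 18.7 and 23.6, 3858 and 4142, and 7928 and 7923, and its difference of −0.99 (95% interval −1.21 to −0.76) sat at the threshold. It was called with TMM scaling (−1.01), with edgeR and limma-voom on recovered reads (−1.01 each) and without the deeper library labelled HT-29 (−1.04, adjusted p = 0.000451).

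EPSTI1, an interferon-responsive gene first described in breast epithelial and stromal cells grown together, showed the widest contrast between the cancer-labelled lines. It had 20.6 and 23.6 in MCF10A, 3.00 and 1.64 in labelled HT-29, and 5344 and 5363 in labelled MDA-MB-436. The labelled HT-29 values rest on 5 reads in all and lay below every other library. Its level was 2673-fold higher in labelled MDA-MB-436 than in labelled HT-29 (log2 difference −10.69, SE 0.221, limma adjusted p = 2.77e-09), and it was 11.4-fold lower in labelled HT-29 than in MCF10A (log2 fold change −2.83, adjusted p = 6.76e-06). With edgeR on recovered reads these were −11.33 and −3.53, and with a pseudocount of 5 in place of 1 they were −9.52 and −1.89.

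PARP9 and DTX3L form a complex that joins ADP-ribosylation to ubiquitination, and PARP14 is a related ADP-ribosyltransferase. PARP9 had 646 and 650 in MCF10A, 4152 and 4206 in labelled HT-29, and 20255 and 19785 in labelled MDA-MB-436. DTX3L had 734 and 794, 4425 and 4677, and 27386 and 26046. PARP14 had 1000 and 1081, 5478 and 5750, and 62422 and 60084, and was 57.0-fold higher than MCF10A in labelled MDA-MB-436 and 5.34-fold in labelled HT-29. PARP9 and DTX3L differed by similar folds, 30.7 and 33.7 in labelled MDA-MB-436 and 6.46 and 5.90 in labelled HT-29. Their starts lie next to each other in opposite directions. As no strand setting is known here, reads from any stretch that the genes share could not be assigned to either. Whether there were such reads was not measured.

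LGALS3BP, a secreted glycoprotein that binds galectins, was high in every line. It had 2841 and 2834 in MCF10A, 8588 and 8527 in labelled HT-29, and 32551 and 33909 in labelled MDA-MB-436. These were 3.01-fold and 11.9-fold above MCF10A.

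**Figure D4:**
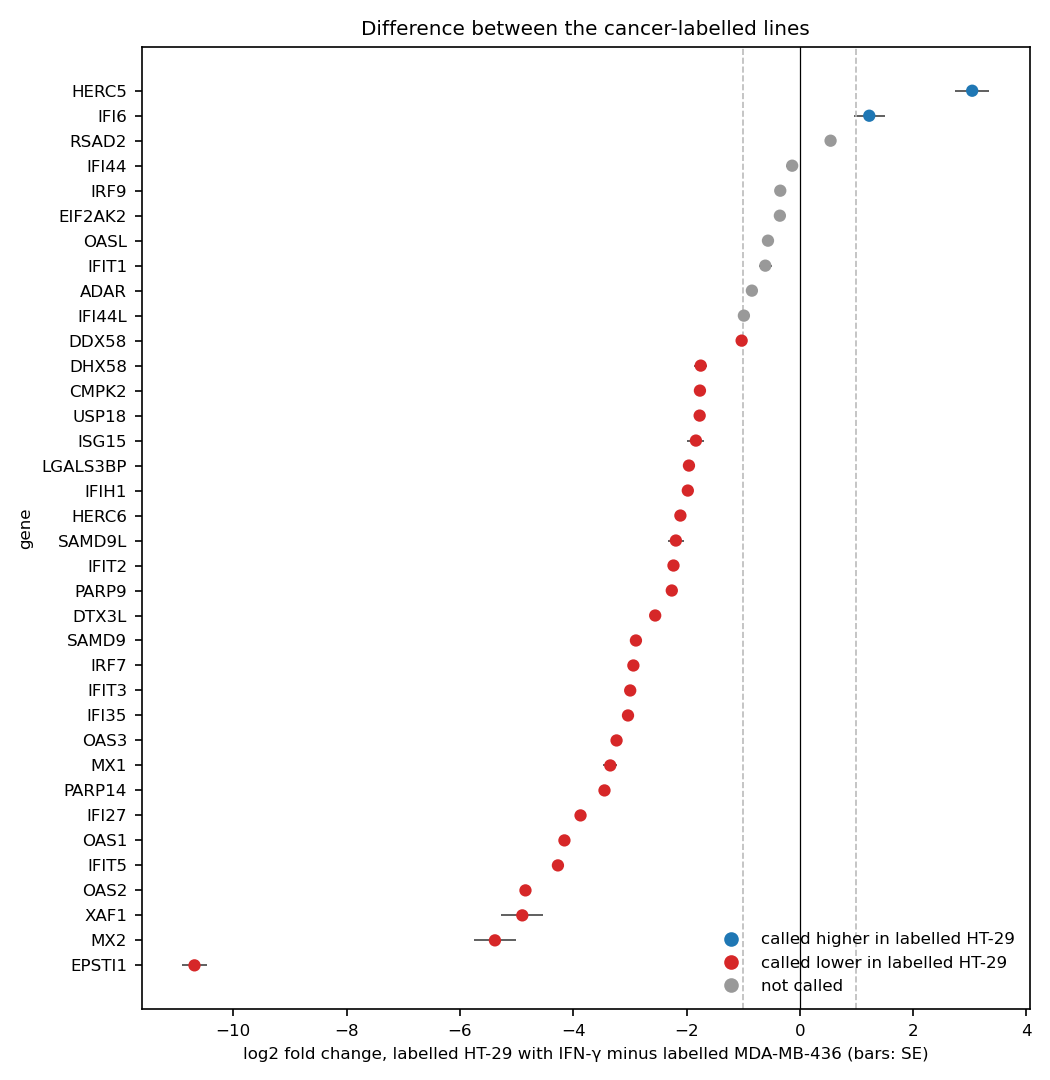
Log2 fold change of the 36 genes between the cancer-labelled lines, labelled HT-29 minus labelled MDA-MB-436, with bars for 1 SE and dashed lines at the 2-fold threshold. Of the points, 26 are red (lower in labelled HT-29), 2 are blue (HERC5 at 3.04 and IFI6 at 1.23) and 8 are grey (not called), and EPSTI1 stands apart at −10.69.

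The ligands that start the pathway were scarce in every line, and 3 of 21 listed passed the filter. IFNB1, the gene for interferon-β, had no read in MCF10A, 40.5 and 28.5 (79 reads) in labelled HT-29, and 2.06 and 16.01 (27 reads) in labelled MDA-MB-436. IFNB1 was called higher in labelled HT-29 than in labelled MDA-MB-436 (log2 difference 2.28, limma adjusted p = 0.0196). The call was lost with DESeq2 (adjusted p = 0.168), with the MCF10A libraries as 1 sample (0.0529), when tested for more than a 2-fold difference (0.133), and on omitting the 25M (log2 difference 2.03, adjusted p = 0.114) or the deeper (2.52, 0.0602) library of labelled HT-29, or the 25M library of labelled MDA-MB-436 (1.04, 0.0538). Against MCF10A, taken at a floor of 3 reads over the line, IFNB1 was at least 27.1-fold higher in labelled HT-29 and at least 10.97-fold in labelled MDA-MB-436. The latter fold pools 1 read in the 25M library with 26 in the deeper one, so it is not a bound that each library gives. IL29, the type III interferon λ, also had no read in MCF10A, with 78.0 and 91.4 in labelled HT-29 and 41.2 and 49.9 in labelled MDA-MB-436. It was at least 75.2-fold and at least 41.0-fold higher than in MCF10A. Its log2 difference between the cancer-labelled lines, 0.88, was under the threshold and was called with scaling by library total (1.21, limma adjusted p = 0.00351) and on omitting the deeper library of labelled MDA-MB-436 (1.02). IFNE, an interferon of epithelia of the reproductive tract, had 13 reads in MCF10A, 8 in labelled HT-29 and 245 in labelled MDA-MB-436, and so was 23.0-fold higher than MCF10A in labelled MDA-MB-436. IFNK and IFNG had no read in any library, and IFNA14 had 11 reads in labelled HT-29 and none elsewhere.

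The 6 listed receptor genes had median log2 fold changes from MCF10A of 0.65 in labelled MDA-MB-436 and 0.64 in labelled HT-29, where all genes had 0 and 0.13. Of these 6, 2 were higher than MCF10A in labelled MDA-MB-436 (IFNGR1 at a log2 fold change of 1.61 and IL28RA, the type III receptor chain, at 3.46) and 2 in labelled HT-29 (IFNAR2 at 1.48 and IL10RB at 1.02), beside 25.6% and 28.4% of all genes. The call for IL10RB was lost with TMM scaling, with edgeR and without the deeper library of MCF10A. IFNAR2, a chain of the type I receptor, had 479 and 472 in MCF10A, 1311 and 1343 in labelled HT-29, and 797 and 849 in labelled MDA-MB-436.

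Of 6 transducers, 5 were higher than MCF10A in labelled MDA-MB-436, beside 25.6% of all genes. In labelled HT-29, 3 were higher, beside 28.4%, and 1, TYK2, was lower (−1.19), beside 18.1%. STAT2, a part of ISGF3, had 541 and 570 in MCF10A, 1443 and 1372 in labelled HT-29, and 7650 and 7413 in labelled MDA-MB-436. IRF1, a factor induced by IFN-γ, had 393 and 414, 2234 and 2194, and 79637 and 79442. The steps between the cancer-labelled lines were 5.37-fold for STAT2 and 36.1-fold for IRF1, both higher in labelled MDA-MB-436 and without overlap. JAK2, a kinase of the IFN-γ receptor, was higher than MCF10A in both, at 3.69 and 1.81. The call for TYK2 was lost with scaling by library total (−0.88). In labelled MDA-MB-436, TYK2 stood at −0.96, under the threshold, and was called lower with TMM scaling (−1.02) and without the deeper library of that line (−1.01).

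A list of 13 genes for nucleic acid sensing upstream of interferon held sensors and also adaptors, kinases, a ligase and transcription factors. Of these, 4 were higher and 2 lower in labelled MDA-MB-436 than in MCF10A, beside 25.6% and 23.7% of all genes. In labelled HT-29, 3 were higher and 4 lower, beside 28.4% and 18.1%. The median log2 fold changes of the list were 0.33 and −0.54, where all genes had 0 and 0.13. ZBP1, a sensor of Z-form nucleic acid, had 1.87 and 0 in MCF10A (1 read), no read in labelled HT-29, and 589 and 609 in labelled MDA-MB-436. IKBKE, a kinase that activates IRF3 and IRF7, had 695 and 722, 1853 and 1894, and 264 and 264, so that, like HERC5, it was higher in labelled HT-29 than in labelled MDA-MB-436 (2.82). Unlike HERC5, it was lower in labelled MDA-MB-436 than in MCF10A (−1.42). TRIM25, the ligase that helps activate RIG-I, was higher in labelled MDA-MB-436 (2.28). IRF3, the factor that starts interferon-β transcription, stood at 0.61 in labelled MDA-MB-436, under the threshold, and was lower in labelled HT-29 (−1.35). IFI16, a DNA sensor, was lower in both, at −1.64 and −1.61.

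The enzymes that attach ISG15 followed ISG15 in part. UBE2L6, its conjugating enzyme, had 67.4 and 87.4 in MCF10A, 5213 and 4935 in labelled HT-29, and 17569 and 18563 in labelled MDA-MB-436. UBA7, its activating enzyme, was 11.1-fold higher than MCF10A in labelled HT-29 and 9.97-fold in labelled MDA-MB-436, with a log2 difference between those of 0.17 (limma adjusted p = 0.0828). Of the 3 listed enzymes, 3 were higher in labelled MDA-MB-436 and 2 in labelled HT-29, beside 25.6% and 28.4% of all genes, ARIH1 being the exception there (−0.37).

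Of 10 negative regulators, 4 were higher than MCF10A in labelled MDA-MB-436, beside 25.6% of all genes. In labelled HT-29, 2 were higher and 4 lower, beside 28.4% and 18.1%, but 1 lower with scaling by library total or when tested for more than a 2-fold difference. SOCS3, an inhibitor of cytokine receptor signalling, had 13.1 and 10.3, 1251 and 1215, and 1044 and 1069, higher in both cancer-labelled lines. SOCS1, the inhibitor of JAK kinases, had 22.5 and 16.2, 258 and 269, and 1097 and 1043. PTPN6, the phosphatase SHP-1, had 742 and 692, 18.0 and 24.1, and 659 and 673, and was thus lower in labelled HT-29 than in MCF10A (log2 fold change −5.04) or labelled MDA-MB-436 (−4.93).

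**Figure D5:**
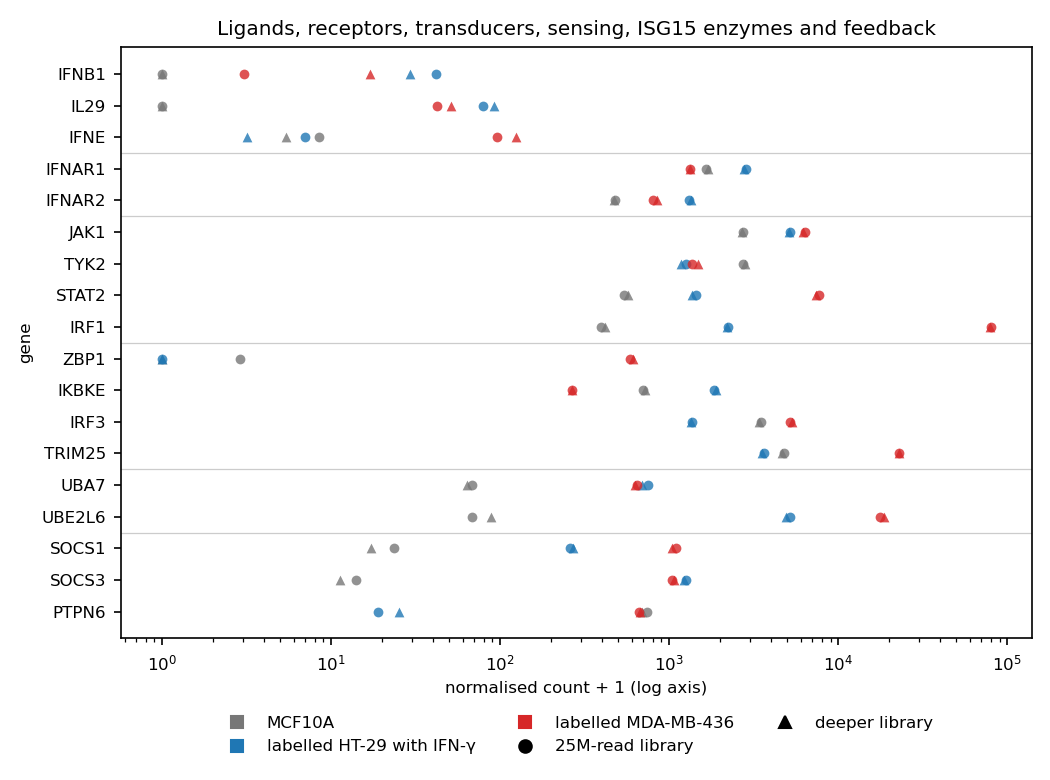
Normalised count plus 1 (log axis) of interferon ligands, type I receptor chains, transducers, upstream sensing genes, ISG15 enzymes and feedback genes in the 6 libraries, with the same colours and shapes as the plot of the 36 genes. STAT2 and IRF1 run in the order MCF10A, labelled HT-29, labelled MDA-MB-436, while IFNB1, IL29, IKBKE and SOCS3 are highest in labelled HT-29.

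Genes that respond more to IFN-γ than to type I interferon were listed to set beside the 36. All 12 were higher in labelled MDA-MB-436 than in MCF10A, beside 25.6% of all genes, with a median log2 fold change of 10.83. In labelled HT-29, 11 were higher, beside 28.4%, with a median of 4.52. All 12 were lower in labelled HT-29 than in labelled MDA-MB-436, with a median of −6.01, where 23.5% of all genes were lower and the 36 type I genes had −2.15. CIITA, the master regulator of MHC class II genes, had 0 and 1.47 in MCF10A, 54.0 and 39.4 in labelled HT-29, and 8790 and 8894 in labelled MDA-MB-436. CD74, the MHC class II invariant chain, had 9.36 and 8.84, 287 and 266, and 86655 and 90311. CXCL9, a chemokine for T cells, had no read in MCF10A, 0 and 0.547 in labelled HT-29, and 2540 and 2615 in labelled MDA-MB-436. These 3 genes stood highest in labelled MDA-MB-436, a label that names no treatment. IRF1 and SOCS1 are on this list as well as on those above.

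A further list of 20 type I responsive genes outside the 36 had 18 that passed the filter. Of these, 16 were higher than MCF10A in labelled MDA-MB-436, beside 25.6% of all genes. In labelled HT-29, 8 were higher, beside 28.4%, and 2 were lower (1 with scaling by library total), beside 18.1%. LAMP3, a lysosomal membrane protein, had 1.87 and 2.45 in MCF10A, 110 and 88.1 in labelled HT-29, and 6765 and 6855 in labelled MDA-MB-436. TRIM22, an antiviral ubiquitin ligase, had 910 and 934, 33.0 and 25.7, and 10289 and 10169. Its order matched that of EPSTI1 and IFIT5, with labelled HT-29 lowest (log2 fold change −4.94 from MCF10A, limma adjusted p = 5.26e-09) and labelled MDA-MB-436 highest.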

How the data were processed

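RNA sequencing tables of 6 libraries were used. The submitters' processing notes name FastQC, STAR 2.2.0, HTSeq and build hg19 without settings; gene annotation and strandedness: not given in the sources used here. Per the file headers, the 23368 rows of each deposited table pair a symbol with a normalised count and with RPKM. The authors' normalised counts are a signal with 1 scaling step per library; 100% of the values above 0 are whole multiples of it (tolerance 0.001), which gave back whole reads. In 3542 rows (15.2%) the ratio of normalised count to the authors' RPKM varied between libraries, or only 1 of these values was 0. RPKM was therefore used for that check alone. Rows with date-like symbols (28) were left out.

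limma 3.58.1 (trend and robust prior, R 4.3.3) was fitted to log2(normalised count + 1) of all 6 libraries together, with 3 residual degrees of freedom. This scale understates the change of low genes. The SE of a gene pools the spread within all 3 lines, also in a difference that leaves a line out. Genes under 10 in both MCF10A libraries, such as CIITA, CD74, CXCL9 and ZBP1 on the pathway lists, passed the filter only through the cancer-labelled libraries. The filter left 15638 genes; calls needed a Benjamini-Hochberg adjusted p under 0.05 over these and a 2-fold difference. Folds given without "log2" are ratios of pooled recovered reads with exact binomial 95% intervals for counting error (a line at 0 was set to 3 reads). edgeR 4.0.16 on recovered reads, an alternative, called 3904 genes higher and 3868 lower in labelled MDA-MB-436 against MCF10A, 4267 and 3098 in labelled HT-29 against MCF10A, and 4624 and 3781 in labelled HT-29 against labelled MDA-MB-436. DESeq2 1.42.0 called 3915 and 3569, 4309 and 2745, and 4582 and 3602 in the same comparisons, and limma-voom 3851 and 3827, 4229 and 3086, and 4606 and 3772. In data simulated for each comparison from MCF10A means with a small assumed spread, limma recovered 67 of 67 genes changed 3-fold, 66 of 66 changed 8-fold and 0 of 67 changed 1.5-fold. A 1.5-fold change lies under the 2-fold threshold, so that last count follows from the rule. Of the unchanged genes, 2, 1 and 3 were called, with the comparisons in the same order as above. The changed genes were drawn from well-expressed ones, so recovery of genes as scarce in MCF10A as MX2 was not tested.

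Against a median chi-square of 0.455 for sampling alone, libraries of a line gave 0.553 to 0.73 over all genes; for the 36 genes the median was 0.406 in MCF10A, 1.31 in labelled HT-29 and 2.27 in labelled MDA-MB-436. Genes named are the 36, KRT20, VIL1, VIM, STAT2, IRF1 and IFNB1, and up to 3 called genes per pathway list with the largest differences in each direction and comparison; IFNK, IFNG, IFNA14, KRT14, CD3D, PTPRC, CD14 and CSF1R were added after their values were seen. The 36 genes, the lists and this rule were chosen with earlier results of these data known. Promoter windows are from RefSeq, GRCh38.p14, matched by symbol alone. Some further pathway genes are not reported here.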

Additional observations from a re-analysis of the deposited data

How the results depend on the processing

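Across 20 alternative settings (scaling, filter, pseudocount, tool, covariate, thinning, fold test and leaving out each library), 2152 of 2160 calls on the 36 genes stayed the same, 5 were gained and 3 were lost. The filter, covariate and fold test settings leave each fold change as it was, and leaving out a library leaves that between the other 2 lines. Many of these calls could therefore move by p-value alone. The sign of the fold change changed for 1, the uncalled difference of IFI44 between the cancer-labelled lines (−0.14, and 0.19 with scaling by library total). All 36 genes were higher in labelled MDA-MB-436 than in MCF10A in every setting. The number higher in labelled HT-29 than in MCF10A was 30 to 31 and the number lower 2; the number higher in both lines was 30 to 31 and in labelled MDA-MB-436 only 4 to 5. Between the cancer-labelled lines, the number lower in labelled HT-29 was 25 to 27, and the number higher, 2, was 1 when tested for more than a 2-fold difference. SAMD9, DDX58, IFI6 and IFI44L were the genes whose calls changed. With at least 10 CPM required in 2 libraries, the genes higher numbered 2424, 2209 and 2670 in place of 3999, 4442 and 4675, and those lower 2655, 2181 and 2637 in place of 3702, 2823 and 3675 (labelled MDA-MB-436 against MCF10A, labelled HT-29 against MCF10A, and labelled HT-29 against labelled MDA-MB-436), since fewer genes were tested. The read-depth label as a covariate changed no call of the 36 genes. Each line had a 25M and a deeper library, so this covariate could not alter a fold change and says nothing on an effect of depth. With DESeq2, edgeR and limma-voom, IFI44L alone of the 36 changed its call (edgeR and limma-voom). With 2 libraries a line, a lone library left after omission is assumed to vary like the others, and genes near 0 in MCF10A (MX2, XAF1) rest on 3 reads.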
